A study of Mus musculus with 24 samples.

Results

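The 10 genes described here are transcripts of neutrophils and of the chemokines that recruit them. The set holds the ligands Cxcl1 and Cxcl2 and the receptors Cxcr2, Csf3r, Trem1 and Hcar2. It also holds the cytosolic proteins S100a8 and S100a9, the secreted protein Retnlg and the granule protease Mmp9. These 10 are among the 19938 genes with a probeset that lists a single gene, and each of them has 1 such probeset. They were selected on their own values in these tumours, namely their differences between IL-12TD tumours and Mock or untreated tumours at days 3 and 7. Those differences are therefore given as a description, with no test, and no threshold set the choice. The 4 IL-12TD arrays of a day stand in both comparisons of that day, so the comparisons are not independent of each other.

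The series profiled B16 tumours, a mouse melanoma model, with 4 biological replicates in each of 6 groups. Mice aged 6 to 12 weeks carried tumours from 500000 subcutaneously injected B16 cells. Untreated mice had nothing further stated in the labels, whereas 10 to 14 days after injection Mock mice were given 5 Gy of total body irradiation and 100000 un-transduced pmel-1 CD8+ T cells, and IL-12TD mice the same irradiation and number of pmel-1 cells transduced with IL-12. Total RNA of single-cell suspensions from tumours taken at either of the 2 days was put on arrays. Pmel-1 cells carry a T cell receptor against a melanocyte protein, and IL-12 is a cytokine that drives interferon gamma production. Irradiation and T cell transfer came together, so they cannot be told apart in Mock against untreated tumours. For the Mock group of day 7, a treatment field says day 3 where the remaining labels say day 7, and the latter was followed. No strain or array batch is given in the sources used here, so day and any batch that went with it cannot be told apart.

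Neutrophils are short-lived phagocytes that leave the marrow under granulocyte colony-stimulating factor, which signals through Csf3r. In mice, chemokines of the Cxcl1 and Cxcl2 type bind Cxcr2 on neutrophils and draw them from blood into inflamed tissue. S100a8 and S100a9 form calprotectin, an abundant cytosolic protein of neutrophils and young monocytes, and granules laden with proteases such as Mmp9 empty at the site of inflammation.

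Promoter sequence is shown for the 2 pairs of members that lie next to each other. In the RefSeq gene table of assembly GRCm38.p6 no protein-coding gene lies between Cxcl1 and Cxcl2 (0 genes) or between S100a8 and S100a9 (0 genes), and Cxcl5, Ppbp, Pf4, Cxcl3 and Cxcl15 precede Cxcl1 in the same row of genes. The 250 bases before the gene start, from RefSeq on GRCm38.p6, are given 5′ to 3′ on the gene's strand. Capitals mark letters that match a motif searched on both strands. The motifs were NF-kB by its consensus, C/EBP (TTGCNNAA), AP-1 (TGANTCA) and the TATA box (TATAAA). Cxcl1 is at chr5:90890995-90891244 (+ strand), Cxcl2 at chr5:90903649-90903898 (+ strand), S100a8 at chr3:90668821-90669070 (+ strand) and S100a9 at chr3:90695722-90695971 (- strand).
Cxcl1: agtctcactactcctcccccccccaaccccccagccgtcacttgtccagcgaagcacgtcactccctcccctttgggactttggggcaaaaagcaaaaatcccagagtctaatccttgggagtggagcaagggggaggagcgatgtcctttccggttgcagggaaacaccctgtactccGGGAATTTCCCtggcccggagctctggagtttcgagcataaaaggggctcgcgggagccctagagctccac
Cxcl2: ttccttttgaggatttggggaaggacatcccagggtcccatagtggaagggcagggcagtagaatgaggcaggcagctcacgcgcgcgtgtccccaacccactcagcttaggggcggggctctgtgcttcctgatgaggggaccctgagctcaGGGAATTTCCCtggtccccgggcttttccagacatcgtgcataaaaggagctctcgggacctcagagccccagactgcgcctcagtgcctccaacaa
S100a8: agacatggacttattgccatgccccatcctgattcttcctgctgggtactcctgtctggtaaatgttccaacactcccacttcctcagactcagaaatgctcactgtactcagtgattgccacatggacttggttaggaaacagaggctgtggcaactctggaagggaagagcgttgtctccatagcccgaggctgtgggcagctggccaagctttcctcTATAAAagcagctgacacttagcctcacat
S100a9: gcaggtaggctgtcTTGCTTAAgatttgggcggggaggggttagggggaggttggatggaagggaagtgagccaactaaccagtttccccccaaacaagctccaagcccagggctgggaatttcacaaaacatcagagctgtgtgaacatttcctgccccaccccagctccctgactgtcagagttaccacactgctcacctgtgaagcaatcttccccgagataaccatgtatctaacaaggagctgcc
Cxcl1 and Cxcl2 share GGGAATTTCCCTGG, the longest run of letters common to both windows (14 bases), and the NF-kB matches on the 2 strands overlap inside it. Among the 8 members with a promoter entry, an NF-kB match was found in 2, the chemokines, against 3.9% of the 32851 promoter entries counted. Entries of a single chromosome, which holds none of these members, were left out of that count. A C/EBP match was found in 2 of 8 (S100a9 and Retnlg) against 9.56% of the entries counted, a TATA match in 1 of 8 (S100a8) against 12.4%, and an AP-1 match in 0 of 8 against 6.75%. A match is a description of letters, and nothing about the binding of a factor follows from it or from its absence.

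Values are log2 intensities, given for replicates 1 to 4 of a group in that order, and a difference is a difference of group means ± SE of the limma model (n = 4 arrays per group). Array medians lay between 5.38 and 5.54, and replicates of a group correlated at 0.962 or more over all genes. The interquartile range of an array was lower in IL-12TD tumours at day 3 (2.08 to 2.33) than in Mock (2.66 to 2.87) and untreated tumours (2.57 to 2.88) of that day. Its part in the differences was not tested, but after quantile normalization the member differences below moved by less than the spread between replicates. The number of arrays limits the precision. In bulk tumour RNA, fewer cells of a type and less RNA per cell cannot be told apart.

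At day 3, all 10 members were higher in IL-12TD tumours than in Mock tumours, by a median of 2.64 on the log2 scale, and 8 of 10 by more than 2-fold. Against untreated tumours all 10 were higher too, by a median of 2.69, again 8 of 10 by more than 2-fold. The median difference over all genes was 0.02 against Mock and 0.01 against untreated tumours. For 9 of 10 members, all but Cxcl1, every IL-12TD array was above every Mock array, a pattern shown by 13.3% of all genes. The same 9 were above every untreated array, against 11.8% of all genes. These shares are background and carry no evidence here, since the members were chosen on this contrast.

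At day 7 the members stood at the level of the controls. Their differences from Mock ran from -0.43 to 0.89 with a median of -0.13, and those from untreated tumours from -0.22 to 1.01 with a median of 0.17. No member (0 of 10) was below every Mock array or every untreated array, patterns that 11.3% and 9.96% of all genes showed. Csf3r was the 1 member above every array of both control groups, as were 10.4% of all genes against Mock and 11.4% against untreated tumours. Within the IL-12TD arm, 8 of 10 members, all but Csf3r and Cxcl1, were lower in every day 7 array than in any day 3 array, against 18.4% of all genes.

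**Figure D1:**
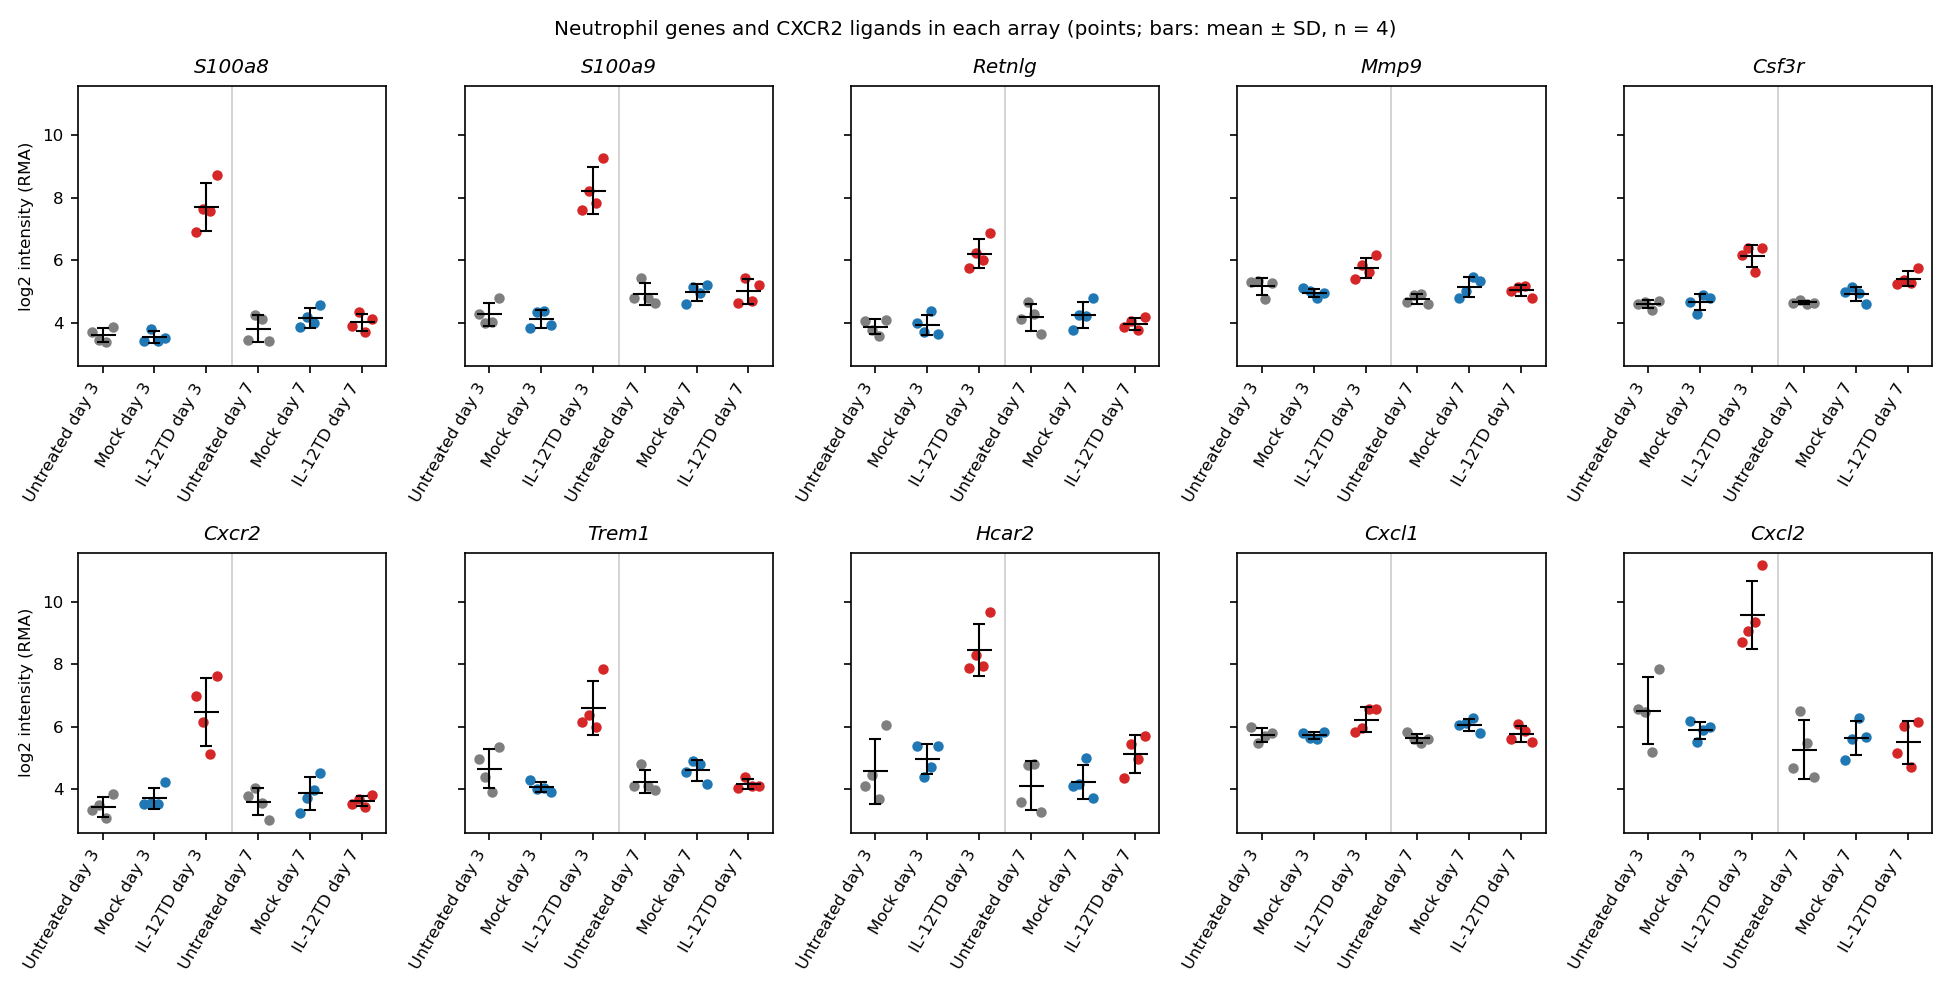
Log2 intensity (y axis) of the 10 genes in the untreated (grey), Mock (blue) and IL-12TD (red) tumours at day 3 and day 7; points are arrays, and bars are the mean ± SD of 4. IL-12TD day 3 stands above the other 5 groups in 7 panels, and overlaps with IL-12TD day 7 in the Csf3r panel, with Mock day 7 in the Mmp9 panel and with the other groups in the Cxcl1 panel.

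Of the ligands, Cxcl2, a CXCR2 chemokine made by macrophages and neutrophils, had IL-12TD day 3 values of 8.72, 9.07, 9.35 and 11.16. Mock day 3 read 6.17, 5.51, 5.90 and 5.98. Untreated day 3 read 6.58, 6.47, 5.19 and 7.84. The lowest IL-12TD array was above the highest control array, which was untreated replicate 4, and IL-12TD replicate 4 stood well above the other 3. The difference was 3.69 ± 0.48 (12.9-fold) from Mock and 3.05 ± 0.48 (8.30-fold) from untreated tumours. Without IL-12TD replicate 4 these differences were 3.16 and 2.53. At day 7, Cxcl2 read 5.15, 6.02, 4.71 and 6.15 in IL-12TD, 4.95, 5.62, 6.27 and 5.69 in Mock, and 4.69, 6.51, 5.48 and 4.40 in untreated tumours. The 3 groups overlapped, and the IL-12TD mean was 4.07 ± 0.48 below its day 3 mean, a 16.8-fold difference.

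Cxcl1, the other CXCR2 ligand of the pair, differed least of the 10 members from Mock at day 3. Its IL-12TD day 3 values were 5.82, 5.95, 6.58 and 6.57, those of Mock 5.80, 5.65, 5.62 and 5.82, and those of untreated tumours 6.0, 5.47, 5.70 and 5.79. Replicates 3 and 4 of IL-12TD were above all controls, while replicates 1 and 2 lay at the top of their range. The difference was 0.51 ± 0.16 (1.42-fold) from Mock and 0.49 ± 0.16 from untreated tumours. At day 7, IL-12TD read 5.60, 6.09, 5.85 and 5.53, Mock 6.07, 6.12, 6.27 and 5.79, and untreated 5.83, 5.61, 5.48 and 5.60. IL-12TD then lay between the controls, with differences of -0.30 ± 0.16 and 0.14 ± 0.16. Cxcl1 and Cxcl2 correlated at 0.578 over the 24 arrays.

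Among the receptors, Cxcr2, the receptor of these chemokines, read 6.98, 6.16, 5.14 and 7.63 in IL-12TD tumours at day 3. Mock arrays read 3.52, 3.57, 3.53 and 4.23, and untreated arrays 3.33, 3.50, 3.09 and 3.86. All 4 IL-12TD arrays were above all 8 control arrays, but they spanned a wide range, with replicate 3 lowest. The difference was 2.77 ± 0.33 (6.80-fold) from Mock and 3.03 ± 0.33 (8.19-fold) from untreated tumours. At day 7, Cxcr2 in IL-12TD read 3.55, 3.70, 3.43 and 3.82, inside the range of Mock (3.26, 3.73, 3.97 and 4.52) and of untreated tumours (3.80, 4.06, 3.56 and 3.03). The IL-12TD differences at day 7 were -0.24 ± 0.33 and 0.02 ± 0.33.

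Csf3r, the receptor for granulocyte colony-stimulating factor, kept part of its difference. Its day 3 values were 6.16, 6.39, 5.64 and 6.38 in IL-12TD, 4.68, 4.30, 4.88 and 4.78 in Mock, and 4.60, 4.66, 4.42 and 4.71 in untreated tumours. The day 3 groups did not overlap, with differences of 1.48 ± 0.16 (2.79-fold) and 1.54 ± 0.16 (2.91-fold). At day 7, Csf3r read 5.25, 5.37, 5.26 and 5.76 in IL-12TD, 5.00, 5.14, 4.96 and 4.59 in Mock, and 4.65, 4.72, 4.62 and 4.65 in untreated tumours. Every IL-12TD array was still above every control array, by 0.48 ± 0.16 (1.40-fold) and 0.75 ± 0.16 (1.68-fold) between means. Replicate 4 of day 7 (5.76) was also above replicate 3 of day 3 (5.64), so the days overlapped within the IL-12TD arm.

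Trem1, a receptor of neutrophils and monocytes that amplifies inflammatory signals, read 6.15, 6.37, 5.98 and 7.86 in IL-12TD tumours at day 3. Mock arrays read 4.30, 4.02, 4.05 and 3.92, and untreated arrays 4.98, 4.40, 3.93 and 5.36. IL-12TD was above both, and the untreated group was spread more widely than Mock. The difference was 2.52 ± 0.30 (5.72-fold) from Mock and 1.92 ± 0.30 (3.78-fold) from untreated tumours. By day 7, Trem1 read 4.06, 4.41, 4.12 and 4.10 in IL-12TD, 4.55, 4.92, 4.80 and 4.17 in Mock, and 4.10, 4.81, 4.12 and 3.97 in untreated tumours. IL-12TD was now 0.43 ± 0.30 below Mock, the furthest below Mock of the 10, and Mock replicate 4 lay within its range.

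Hcar2, a receptor for nicotinic acid and beta-hydroxybutyrate present on neutrophils and macrophages, had day 3 values of 7.89, 8.30, 7.94 and 9.66 in IL-12TD tumours. Mock read 5.39, 4.41, 4.73 and 5.38, and untreated tumours 4.12, 4.45, 3.69 and 6.06. No control array reached the IL-12TD range, and untreated replicate 4 was the highest control. The differences were 3.47 ± 0.43 (11.1-fold) and 3.87 ± 0.43 (14.6-fold). At day 7, Hcar2 in IL-12TD read 4.37, 5.46, 4.98 and 5.72 against 4.10, 4.18, 4.99 and 3.71 in Mock and 3.61, 4.77, 4.81 and 3.29 in untreated tumours. Its day 7 differences of 0.89 ± 0.43 and 1.01 ± 0.43 were the largest of the members, but the groups overlapped.

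The calprotectin genes had the largest day 3 differences. S100a8 read 6.90, 7.64, 7.57 and 8.74 in IL-12TD, 3.41, 3.81, 3.41 and 3.53 in Mock, and 3.71, 3.45, 3.40 and 3.86 in untreated tumours. S100a9 read 7.60, 8.21, 7.82 and 9.28 in IL-12TD, 3.85, 4.35, 4.37 and 3.92 in Mock, and 4.27, 4.00, 4.04 and 4.80 in untreated tumours. For both genes a gap of more than 2 log2 units separated the lowest IL-12TD array from the highest control. S100a8 differed by 4.17 ± 0.25 (18.0-fold) from Mock and 4.11 ± 0.25 (17.3-fold) from untreated tumours. S100a9 differed by 4.10 ± 0.26 (17.2-fold) and 3.95 ± 0.26 (15.4-fold).

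Both calprotectin genes were back among the controls at day 7. S100a8 read 3.89, 4.34, 3.70 and 4.14 in IL-12TD, 3.86, 4.19, 4.01 and 4.58 in Mock, and 3.47, 4.26, 4.12 and 3.43 in untreated tumours. S100a9 read 4.64, 5.45, 4.71 and 5.22 in IL-12TD, 4.61, 5.16, 4.95 and 5.21 in Mock, and 4.79, 5.44, 4.81 and 4.64 in untreated tumours. The 3 groups overlapped for each gene, and the IL-12TD means were 3.69 ± 0.25 (S100a8) and 3.22 ± 0.26 (S100a9) below their day 3 means. S100a8 and S100a9 were also the pair of members with the highest correlation, 0.984 over the 24 arrays, which share treatment and day.

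Retnlg, a secreted resistin-like protein of mouse neutrophils, read 5.75, 6.23, 6.01 and 6.86 in IL-12TD tumours at day 3. Mock read 3.99, 3.72, 4.37 and 3.66, and untreated tumours 4.05, 3.76, 3.59 and 4.10. The IL-12TD arrays were all above the controls, by 2.28 ± 0.22 (4.85-fold) and 2.34 ± 0.22 (5.06-fold) between means. At day 7, Retnlg read 3.86, 4.06, 3.78 and 4.19 in IL-12TD, 3.78, 4.24, 4.22 and 4.79 in Mock, and 4.13, 4.68, 4.30 and 3.64 in untreated tumours. The groups overlapped, and both differences were below 0, at -0.29 ± 0.22 and -0.22 ± 0.22.

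Mmp9, gelatinase B of neutrophil granules and also a product of macrophages, differed less. It read 5.39, 5.85, 5.64 and 6.16 in IL-12TD, 5.10, 5.02, 4.80 and 4.95 in Mock, and 5.30, 5.33, 4.77 and 5.28 in untreated tumours at day 3. The IL-12TD arrays were all above the controls, but the lowest of them exceeded the highest untreated array by less than 0.1. The difference was 0.79 ± 0.16 (1.73-fold) from Mock and 0.59 ± 0.16 (1.51-fold) from untreated tumours. At day 7, Mmp9 read 5.02, 5.16, 5.19 and 4.80 in IL-12TD, 4.78, 5.02, 5.47 and 5.34 in Mock, and 4.68, 4.88, 4.92 and 4.59 in untreated tumours, with overlap throughout and differences of -0.11 ± 0.16 and 0.28 ± 0.16.

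**Figure D2:**
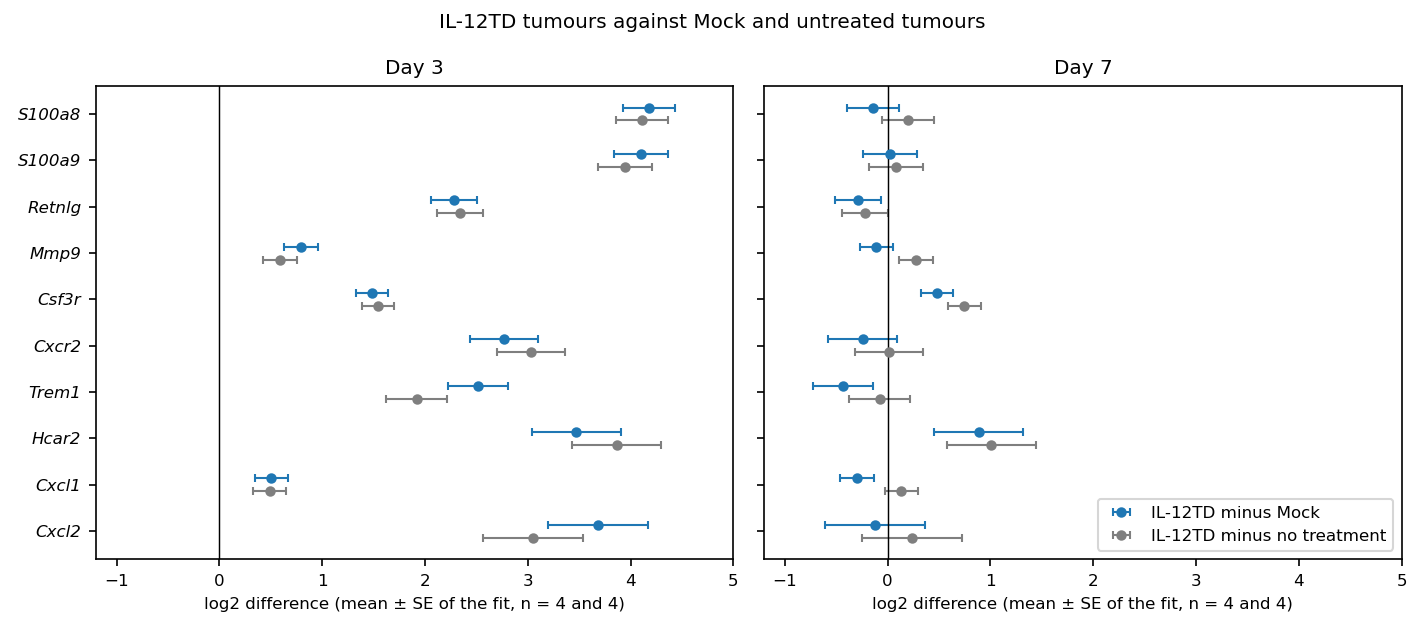
Difference of IL-12TD from Mock (blue) and from untreated tumours (grey) on the log2 scale (x axis) for each of the 10 genes, at day 3 (left) and day 7 (right); bars are the SE of the fit with 4 arrays a group. At day 3 all points lie right of 0, from 0.49 to 4.17, while at day 7 most lie near 0 and those of Csf3r and Hcar2 lie right of it.

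The difference between the days, the day 7 difference from Mock minus the day 3 difference, was below 0 for each member. It ran from -4.31 ± 0.36 for S100a8 and -4.08 ± 0.37 for S100a9 to -0.90 ± 0.23 for Mmp9 and -0.80 ± 0.23 for Cxcl1. In the order of group means, IL-12TD day 3 came first for all 10. It stood clear of the second group for 8 of 10, and overlapped with it for Csf3r and Cxcl1. Mmp9 in IL-12TD day 3 replicate 1 (5.39) was below Mock day 7 replicate 3 (5.47), a group further down its order. The second group was IL-12TD day 7 for S100a9, Csf3r and Hcar2, Mock day 7 for S100a8, Retnlg, Cxcr2 and Cxcl1, and untreated day 3 for Cxcl2, Mmp9 and Trem1. From the second place on, neighbours in the order overlapped for every member except Csf3r, where IL-12TD day 7 stood clear of Mock day 7. Low signal limits the control groups: 5 of 10 members in Mock at either day and in untreated tumours at day 3, and 7 of 10 in untreated tumours at day 7, lay below the 40th percentile of their array on all 4 arrays. In IL-12TD tumours that held for 0 of 10 members at day 3 and 4 of 10 at day 7. Background signal sets a floor under such values, so a fold against them can be smaller than the difference in RNA.

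The contrasts that did not choose the members were tested with limma and Benjamini-Hochberg adjustment over all genes. Between Mock and untreated tumours 0 of 10 members were called at day 3 and 0 of 10 at day 7, where 0% of all genes were called in either direction. At an unadjusted p under 0.05, limma listed 0 members and 329 genes (1.65%) at day 3, and 2 members (Cxcl1 and Mmp9) and 2767 genes (13.9%) at day 7. For S100a8 the 95% interval of Mock minus untreated ran from -0.58 to 0.45 at day 3, and for Cxcl2 it ran from -1.63 to 0.36, an interval that holds a 2-fold difference in Cxcl2. Cxcl1 was 0.43 ± 0.16 higher in Mock at day 7 (limma adjusted p = 0.261). The Mock effect at day 7 minus that at day 3 called 0 of 10 members and 0% of genes, with 2 members (Mmp9 and Trem1) and 1420 genes (7.12%) at an unadjusted p under 0.05.

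In the main model, time in the control arms moved few members past the threshold. That model pools the spread of all 6 groups, IL-12TD day 3 among them (S100a8 SD 0.76, against 0.186 and 0.315 in Mock at days 3 and 7). From day 3 to day 7 in Mock tumours S100a9 rose by 0.86 ± 0.26 (1.81-fold, limma adjusted p = 0.00859). S100a8 rose by 0.62 ± 0.25 (1.54-fold, limma adjusted p = 0.0425), but this was no longer called when arrays were quantile normalized (adjusted p = 0.185) or centred (0.0744), or without any 1 of Mock day 3 replicates 1, 3 and 4 or Mock day 7 replicates 2, 3 and 4 (0.41 to 0.67 over these settings). In this contrast 23.8% of all genes rose and 27.1% fell, so 2 of 10 members rising is near the background share. With only the compared groups in the model, 5 of 10 members were called. Cxcl1 (0.34, limma adjusted p = 0.0422) and Trem1 (0.54, 0.0127) were then called higher and Hcar2 (-0.73, 0.0272) lower. The share of all genes called in that setting is not given here. In untreated tumours Cxcl2 fell by 1.25 ± 0.48 (2.38-fold, limma adjusted p = 0.0447), where 11.3% of genes rose and 24.2% fell (after quantile normalization 46.2% of the calls were rises, in place of 31.8%). That single call was near the threshold. Without the high untreated day 3 replicate 4 the fall was 0.81 (limma adjusted p = 0.205). The fall was also not called on quantile normalized values (limma adjusted p = 0.102), under the trended and robust prior (0.0983) or with only the compared groups (0.0722). The same held without untreated day 3 replicate 1 or 2 or untreated day 7 replicate 1, 3 or 4 (limma adjusted p 0.0541 to 0.161). S100a9 (0.64 ± 0.26, limma adjusted p = 0.0595) and Mmp9 (-0.40 ± 0.16, limma adjusted p = 0.0542) were not called in untreated tumours. Both were called under some alternatives, such as without dim genes (limma adjusted p = 0.0483 and 0.0424).

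Neutrophil genes outside the 10 were tested in the IL-12TD comparisons; their lists were drawn up with earlier results of these data known. Of 16 granule genes, 6 rose at day 3 against Mock and 0 fell (median difference 0.41), where 17.3% of all genes rose and 25.9% fell. Ly6g, the surface antigen that defines mouse neutrophils, rose by 1.77 ± 0.25 (3.42-fold, limma adjusted p = 4.08e-06), from 3.23 to 3.76 in Mock to 4.42 to 6.49 in IL-12TD arrays. Lcn2, the siderophore-binding lipocalin of specific granules, rose by 2.10 ± 0.29 (4.27-fold). Pglyrp1, a granule protein that binds peptidoglycan, rose by 1.51 ± 0.18 (2.85-fold).

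Other granule genes moved little or not at all. Ltf, lactoferrin of specific granules, rose by 0.48 ± 0.12 (limma adjusted p = 0.00184), a call lost after quantile normalization (0.29, adjusted p = 0.0597). Mmp8, neutrophil collagenase, rose by 1.03 ± 0.34 (limma adjusted p = 0.0174), a call lost without Mock day 3 replicate 2 or 4 or IL-12TD day 3 replicate 4 (adjusted p 0.0596 to 0.077). Ngp, Camp and Cd177, granule and surface proteins of maturing and mature neutrophils, differed by 0.45 ± 0.20, 0.21 ± 0.14 and -0.02 ± 0.12 and were not called (limma adjusted p = 0.0734, 0.214 and 0.912). Of the 6 defining neutrophil markers outside the 10, 3 thus rose at day 3, 0 changed at day 7, and 3 lay below the array's 40th percentile on all IL-12TD day 3 arrays. At day 3 against Mock, Ly6g was called in all settings run, and Camp and Cd177 in none. Ltf, Mmp8 and Ngp were called there in some settings (Ngp at 0.57, adjusted p = 0.0375, without IL-12TD day 3 replicate 1). At day 7 Cd177 was called lower than Mock in some alternatives, such as quantile normalization (-0.30, limma adjusted p = 0.0459). Camp was called lower between the days without Mock day 7 replicate 1 (-0.56, limma adjusted p = 0.0187). These 6 markers were read on the same arrays that chose the members, so they are no independent test of the neutrophil label.

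At day 7 the granule list had 1 rise and 1 fall of 16 against Mock (median -0.21), where 12.9% of all genes rose and 8.83% fell (after quantile normalization 47.1% of all calls were rises, in place of 59.4%). The rise was Ctsg, cathepsin G of azurophil granules, at 0.72 ± 0.20 (limma adjusted p = 0.0128; 0.39 and adjusted p = 0.0759 without IL-12TD day 7 replicate 3). The fall was Cebpe, a transcription factor of granule maturation, at -0.34 ± 0.13 (limma adjusted p = 0.0495), which was lost under quantile normalization and without any 1 of 5 arrays, Mock day 7 replicates 2 and 3 and IL-12TD day 7 replicates 1, 2 and 3. Ly6g, Lcn2 and Pglyrp1 differed by 0.14 ± 0.25, -0.05 ± 0.29 and 0.08 ± 0.18. The difference between the days itself called 7 of 16 granule genes lower and 0 higher, where 24.1% of all genes were higher and 18.4% lower. It was -2.14 ± 0.40 for Lcn2, -1.63 ± 0.36 for Ly6g and -1.43 ± 0.25 for Pglyrp1 (limma adjusted p = 0.000303, 0.00107 and 0.000176).

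Neutrophil surface and activation genes, a broader list that monocytes and macrophages share in large part, rose in 18 of 23 cases at day 3 (median 1.29) and fell in 0. Of all genes, 17.3% rose and 25.9% fell there. Acod1, the itaconate-making enzyme of activated myeloid cells, rose by 3.49 ± 0.33 (11.3-fold, limma adjusted p = 5.18e-09). Hdc, histidine decarboxylase of granulocytes and mast cells, rose by 2.38 ± 0.24 (5.19-fold). Mxd1, a MYC antagonist of differentiating granulocytes, rose by 1.70 ± 0.15, and Slpi, an inhibitor of neutrophil elastase, by 1.49 ± 0.14. Cxcr1, the second chemokine receptor of the family, was not called (0.31 ± 0.18, limma adjusted p = 0.162).

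At day 7, 7 of 23 genes of this list rose against Mock and 0 fell (median 0.45), where 12.9% of all genes rose and 8.83% fell. Itgb2, the beta chain of leukocyte integrins, rose by 2.04 ± 0.28 at day 7 after 1.53 ± 0.28 at day 3, and Selplg, the P-selectin ligand of leukocytes, by 1.58 ± 0.20 after 1.45 ± 0.20. Acod1 rose by 1.92 ± 0.33 at day 7. Hdc, at 0.22 ± 0.24, and Slpi, at -0.24 ± 0.14, were not called at day 7. The difference between the days called 12 of 23 genes lower and 0 higher, among them Slpi (-1.73 ± 0.20, limma adjusted p = 2.4e-06) and Hdc (-2.16 ± 0.34, limma adjusted p = 5.94e-05), but not Itgb2 (0.51 ± 0.40, adjusted p = 0.293). In that contrast 24.1% of all genes were higher and 18.4% lower.

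Other CXCR2 ligands and granulocyte cytokines rose in 11 of 18 cases at day 3 and fell in 0 (median 0.43), where 17.3% of all genes rose and 25.9% fell. Csf2, the cytokine GM-CSF, made by activated T cells among others, rose by 2.81 ± 0.14 (6.99-fold, limma adjusted p = 8.52e-14), with Mock arrays between 3.71 and 4.18 and IL-12TD arrays between 6.33 and 7.01. Il1b, interleukin 1 beta, rose by 3.62 ± 0.42 (12.3-fold), and Tnf by 1.79 ± 0.21 (3.45-fold). Cxcl3, a CXCR2 ligand from the same gene row as Cxcl1 and Cxcl2, rose by 1.74 ± 0.23 (3.34-fold, limma adjusted p = 1.92e-06).

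Cxcl5, Ppbp and Pf4, chemokines of that row, had smaller differences. Cxcl5 differed by 0.37 ± 0.15 at day 3 (limma adjusted p = 0.0497), a call lost on quantile normalized values (0.14, adjusted p = 0.517) and without any 1 of 6 arrays (all 4 Mock day 3 arrays and IL-12TD day 3 replicates 1 and 3). Ppbp, a platelet chemokine, differed by -0.10 ± 0.36, and Pf4, platelet factor 4, by 0.29 ± 0.31, neither called (limma adjusted p = 0.83 and 0.47). Csf3, the ligand of Csf3r, was not called either, at 0.20 ± 0.15 (limma adjusted p = 0.265), with Mock arrays from 4.46 to 5.00 and IL-12TD arrays from 4.60 to 5.13.

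At day 7, 1 gene of this list rose (Tnf, 0.80 ± 0.21, limma adjusted p = 0.00622) and 2 fell, where 12.9% of all genes rose and 8.83% fell. The falls were Ppbp, by 1.32 ± 0.36 (2.50-fold, limma adjusted p = 0.00855; 0.93 and adjusted p = 0.0613 without Mock day 7 replicate 3), and Ackr1, the atypical chemokine receptor of venules, by 0.54 ± 0.19 (limma adjusted p = 0.0356; lost after quantile normalization and without any 1 of 5 arrays, Mock day 7 replicates 2 and 4 among them). Between the days 13 of 18 genes were called lower and 0 higher, where 24.1% of all genes were higher and 18.4% lower. The difference was -2.90 ± 0.21 for Csf2 (limma adjusted p = 1.02e-09), -3.26 ± 0.59 for Il1b (0.000205) and -2.16 ± 0.33 for Cxcl3 (4.68e-05).

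**Figure D3:**
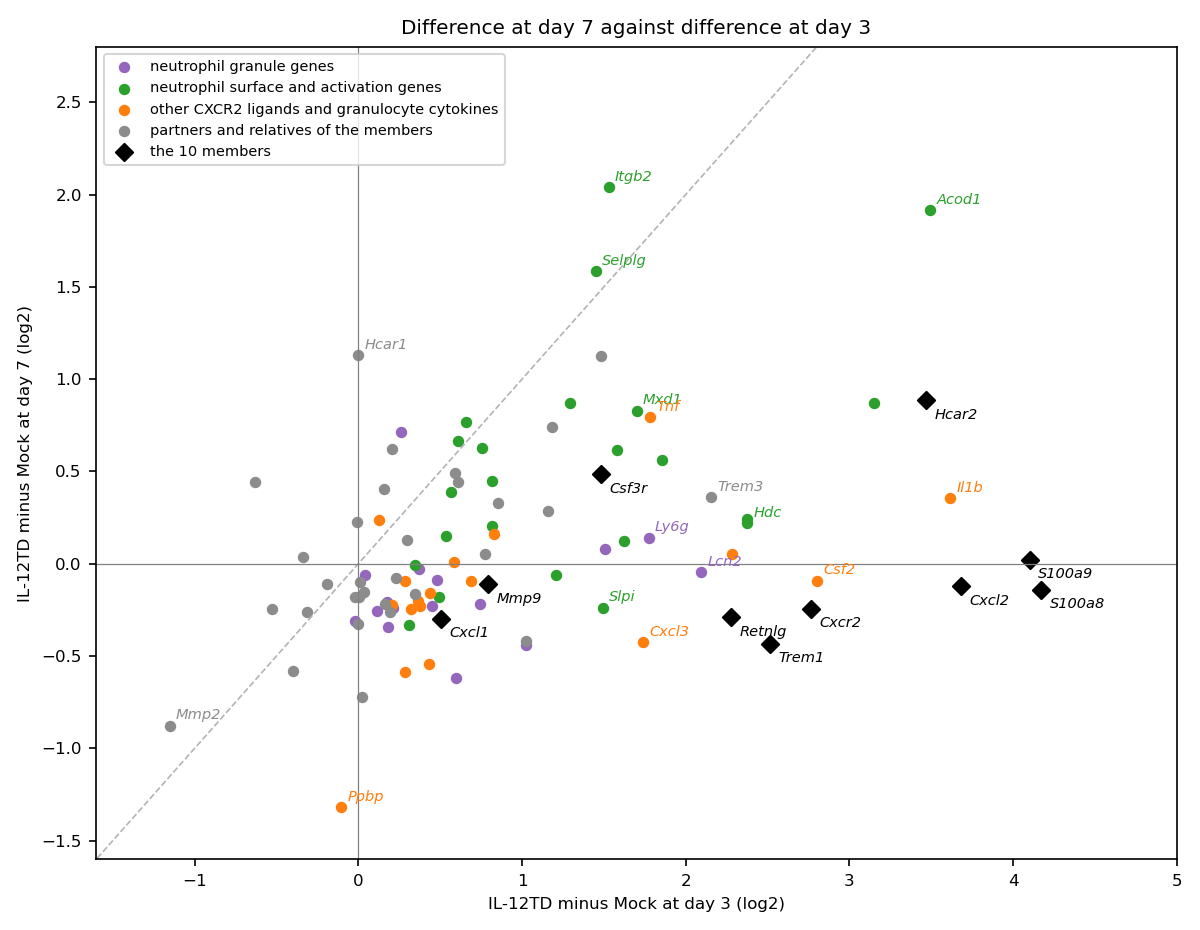
IL-12TD minus Mock at day 7 (y axis) against the same difference at day 3 (x axis), both on the log2 scale, for the 10 members (black diamonds) and the genes of the 4 lists (circles). Genes with a difference above 2 at day 3 lie below the dashed line of equal differences, most of them near 0 on the y axis, whereas Itgb2 and Selplg lie above that line.

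Relatives and partners of the members, such as other S100 proteins, metalloproteinases and their inhibitors, TREM receptors and adaptors, were mixed: 10 of 31 rose and 4 fell at day 3 (median 0.15). Of all genes, 17.3% rose and 25.9% fell there. Trem3, an activating receptor of the same family as Trem1, rose by 2.16 ± 0.20 (4.45-fold, limma adjusted p = 6.62e-09), and Treml2 by 1.16 ± 0.14. Tyrobp, the adaptor through which Trem1 signals, rose by 1.48 ± 0.32 at day 3 and 1.13 ± 0.32 at day 7 (limma adjusted p = 0.0126; 0.0530 without Mock day 7 replicate 2 and 0.0555 without IL-12TD day 7 replicate 4). Mmp2, gelatinase A, fell by 1.15 ± 0.17 at day 3 and by 0.88 ± 0.17 at day 7 (limma adjusted p = 7.61e-06 and 0.000442), and its inhibitor Timp2 fell too, by 0.40 ± 0.12 (lost after quantile normalization, adjusted p = 0.223) and 0.58 ± 0.12. S100a6 rose by 1.18 ± 0.21 and 0.74 ± 0.21 (at day 7 limma adjusted p = 0.0133; 0.0516 without Mock day 7 replicate 1).

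Hcar1, the lactate receptor beside Hcar2 in its family, had the opposite time course. It differed by 0.00 ± 0.19 at day 3 and rose by 1.13 ± 0.19 (2.19-fold, limma adjusted p = 6.63e-05) at day 7, and the difference between the days was 1.13 ± 0.27 (limma adjusted p = 0.00198). In all, 5 of 31 relatives rose and 2 fell at day 7, where 12.9% of all genes rose and 8.83% fell. Between the days 2 were higher and 4 lower, where 24.1% of all genes were higher and 18.4% lower. These counts are near or below the shares of all genes.

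The comparison with untreated tumours used the same IL-12TD arrays. At day 3, 7 of 16 granule, 20 of 23 surface and activation, 9 of 18 ligand and cytokine genes and 8 of 31 relatives rose, and 0, 0, 0 and 6 fell, where 16.1% of all genes rose and 25.8% fell. At day 7, 2, 12, 2 and 10 genes of these lists rose and 0, 0, 1 and 3 fell, where 11.8% of all genes rose and 8.61% fell (rises were 57.8% of all calls, 45.4% after quantile normalization and 39.3% after centring). Pglyrp1 was among the day 7 rises (0.64 ± 0.18, limma adjusted p = 0.0101; 0.0512 without untreated day 7 replicate 4).

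Leukocyte genes as a whole did not share the time course of the neutrophil genes. All 12 pan-leukocyte markers rose against Mock at day 3 (median 1.49), and all 12 at day 7 (median 1.52). Ptprc, the leukocyte antigen CD45, rose by 2.14 ± 0.28 at day 3 and 2.59 ± 0.28 at day 7 (limma adjusted p = 9.86e-07 and 5.88e-08). The day 3 difference from Mock was larger than that of Ptprc for 7 of 10 members, and the day 7 difference for 0 of 10. Against untreated tumours these counts were 5 and 0 of 10. Since the members were chosen on these contrasts, the counts are a description only and no evidence of a separate course. The mean of the 8 members that are not chemokines ran from 6.47 to 7.82 in IL-12TD day 3 arrays and from 4.33 to 4.74 in IL-12TD day 7 arrays, while the pan-leukocyte mean ran from 7.93 to 8.28 and from 7.59 to 8.02.

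**Figure D4:**
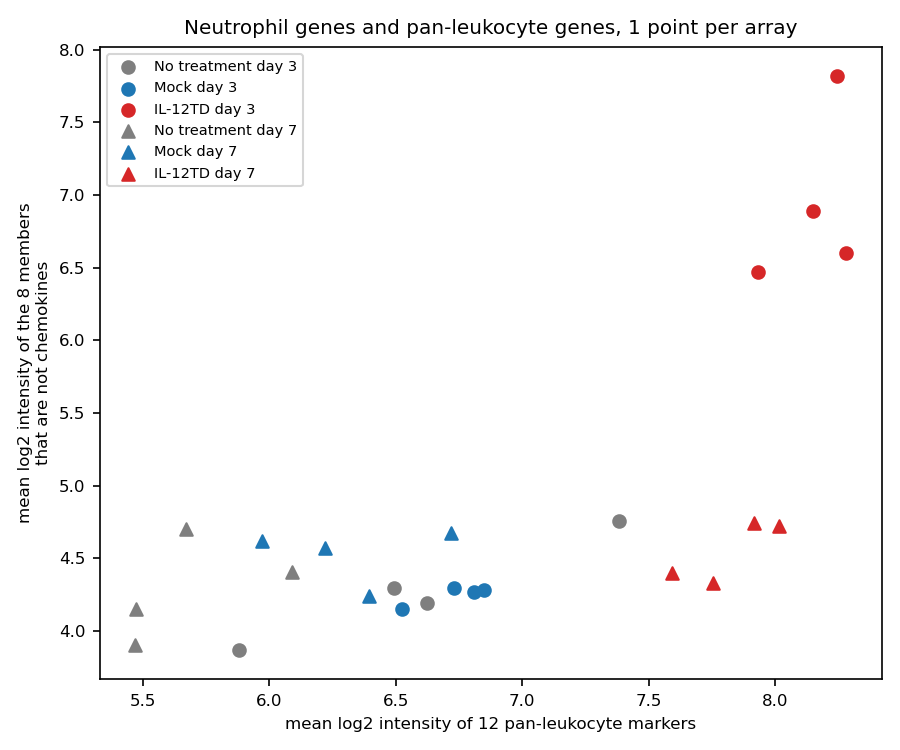
Mean log2 intensity of the 8 members that are not chemokines (y axis) against the mean of 12 pan-leukocyte markers (x axis), with 1 point per array, circles for day 3 and triangles for day 7. IL-12TD arrays of both days lie at 7.59 or more on the x axis, but those of day 7 lie at 4.33 to 4.74 on the y axis, within the range of the controls.

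Markers of other cell types that can express some of these genes were counted too. Against Mock, 17.3% of all genes rose and 25.9% fell at day 3, and 12.9% rose and 8.83% fell at day 7. These shares stand beside the marker counts here and in the following paragraphs. The day 3 counts of this paragraph are near or below them. Of 13 monocyte and macrophage markers 3 rose at day 3 and 6 at day 7, and 0 fell. Their summed level, as a mean over the list, ran from 6.83 to 7.78 in IL-12TD and 6.72 to 6.92 in Mock arrays at day 3, and from 6.47 to 7.20 and 5.78 to 6.50 at day 7. Lyz2, lysozyme of macrophages and neutrophils, differed by 0.48 ± 0.39 and 0.91 ± 0.39, and Cd68 by 0.52 ± 0.30 and 0.79 ± 0.30, none of them called against Mock. The rises at day 3 were Cd14 (1.98 ± 0.29, limma adjusted p = 6.12e-06), a coreceptor for bacterial lipopolysaccharide that neutrophils also carry, Fcgr1 (0.99 ± 0.26) and Cx3cr1 (0.48 ± 0.12). Cd14 differed by 0.15 ± 0.29 at day 7, and the difference between the days was -1.84 ± 0.41 for Cd14 and -0.62 ± 0.17 for Cx3cr1 (limma adjusted p = 0.00128 and 0.0073), the 2 genes of this list called lower there. The 6 rises at day 7 were Adgre1, C1qa, C1qb, C1qc, Ccr2 and Msr1, by 0.72 to 1.33. Markers named here and below as the members of a small count were chosen after their values were seen. Of 12 eosinophil, basophil and mast cell markers 2 rose and 1 fell at day 3 and 1 rose at day 7, and 10 of 12 lay below the array's 40th percentile in all 6 groups. The fall at day 3 was Kit, which melanocytes express too (-0.85 ± 0.21), which also gave the rise at day 7 (0.81 ± 0.21), and the rises at day 3 were Tpsb2 and Ms4a2, both by 0.40.

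T cell markers rose in 9 of 11 cases at day 3 and 6 of 11 at day 7, with a list mean of 6.49 to 6.65 in IL-12TD and 4.42 to 4.81 in Mock arrays at day 3. Cd3e rose by 3.12 ± 0.21 and 2.15 ± 0.21, and Cd8a by 3.00 ± 0.17 and 2.06 ± 0.17. Keratinocyte markers, which bear on S100a8 and S100a9 since stressed skin also expresses them, rose in 2 of 10 cases at day 3 and fell in 1 at day 7. Their list mean was 4.57 to 4.69 in IL-12TD and 4.22 to 4.41 in Mock arrays at day 3, and 7 of 10 lay below the array's 40th percentile on all IL-12TD day 3 arrays. The difference between the days called 7 of 11 T cell markers lower and 0 higher (median -0.91). It called 6 of 10 keratinocyte markers lower and 0 higher (median -0.54), where 24.1% of all genes were higher and 18.4% lower. A lower difference at day 7 was thus not particular to the neutrophil genes. The part of these cell types in the member values was not tested.

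Stromal and tumour markers moved less evenly. At day 3, 2 of 9 endothelial markers rose and 4 fell, and at day 7, 1 rose and 2 fell (list mean 4.90 to 5.25 in IL-12TD and 5.25 to 5.46 in Mock at day 3). Among them Emcn fell by 0.64 ± 0.17 and 0.95 ± 0.17. Of 9 fibroblast markers 2 rose and 1 fell at day 3, and 3 rose and 1 fell at day 7 (5.99 to 6.22 against 5.49 to 5.87 at day 3). The rises at day 3 were Thy1 (2.95 ± 0.23), which mouse T cells also express, and Dcn (1.02 ± 0.22), while Col1a1, Col1a2, Lum and Pdgfra were not called there (-0.05 to 0.28). Melanocyte markers, which check the tumour itself, had 0 of 10 below the array's 40th percentile on all arrays of a group, and 7 of 10 fell at day 3 and 1 at day 7 (10.34 to 10.52 against 10.90 to 10.94 at day 3), with Tyrp1 lower by 0.37 ± 0.13 at day 3. Their part in the member differences was not tested.

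Across the 24 arrays, which share treatment, day and any batch, the genes whose pattern was most like the mean of the 8 members that are not chemokines were Hdc (r = 0.981), Arg2 (0.976), Il1f9 (0.973), Cldn1 (0.971), Il1b (0.967) and Ccl4 (0.958). Predicted and clone-type gene symbols were left out of this ranking. The differences of these genes from Mock at day 3 ran from 2.20 for Ccl4 to 3.62 for Il1b, and at day 7 from 0.05 for Ccl4 to 0.36 for Il1b. Such a course follows from choosing genes by likeness to the members, so it is a description only. The mean of Cxcl1 and Cxcl2 was most like Cxcl3 (0.949), Il1b (0.945), Cd14 (0.939), Dusp5 (0.938), Ccl4 (0.937) and Arg2 (0.937). Among the members themselves, Cxcl1 stood apart, correlating at 0.484 (Csf3r) to 0.675 (Trem1) with the other 9, while Cxcl2 correlated at 0.937 with Trem1 and 0.934 with Hcar2.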

How the data were processed

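The deposited table holds log2 intensities per probeset of 24 arrays. Per the submitters' processing notes the authors used RMA, with its version not given in the sources used here. No source says if the 24 arrays went through RMA jointly. The log2 unit was read from the values (1.009 to 14.367). Of 35556 probesets, 21789 list 1 gene, and the brightest on average was kept for each of 19938 genes; probesets listing several genes (1621) or none (12146) were left out. Of the kept symbols 21698 probesets matched the RefSeq gene table and 91 kept the platform's name. Groups came from the titles and characteristics. The labels call replicates biological but name no animals, so p-values measure the spread between these samples.

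Genes were tested with limma 3.58.1 (R 4.3.3; lmFit, eBayes, two-sided) with a mean per group over all 24 arrays, Benjamini-Hochberg adjustment over the whole table, calling genes at an adjusted p below 0.05. The members and gene lists were chosen with earlier results of these data known. Of each list, the text names up to 4 genes with the smallest adjusted p for IL-12TD against Mock at day 3, 4 at day 7 and 2 for the difference between days, plus defining neutrophil markers, the other CXCR2 ligands, Csf3 and Cxcr1, the 6 genes most like each of 2 member means, and Ptprc and up to 2 of the highest genes of each marker list; not all are given. Some genes of the lists were not analysed here. The model was tested on data simulated for Mock against untreated at day 3 (19938 genes): 94% of 100 genes changed by 1 on the log2 scale and 100% of 100 changed by 2 were called, with 15 false calls. Alternatives were quantile normalization, centring, removal of dim genes, another variance prior, only the compared groups, the mean of probesets, a replicate block and each array left out.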

Additional observations from a re-analysis of the deposited data

Results flagged for a closer look

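Each member's 4 values in each group were screened for an array far from the other 3 (gap over range above 0.829), which made 60 screens, and 2 arrays passed. Chance alone passes about 1 in 20 such screens. Cxcr2 in Mock day 3 replicate 4 was 4.23, while the other 3 arrays lay between 3.52 and 3.57 (ratio 0.922). Mmp9 in untreated day 3 replicate 3 was 4.77, while the others lay between 5.28 and 5.33 (ratio 0.917).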

How the results depend on the processing

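Under the alternatives that kept all arrays, the described IL-12TD differences of the members moved by less than the largest SD of the compared groups. Leaving out an array of 4 cannot move a group mean that far, so those runs could not fail this criterion. With an array left out, the Cxcl2 difference from Mock at day 3 ran from 3.16 to 3.97. Small day 7 differences such as Cxcl2 against Mock crossed 0 (-0.35 to 0.14 with an array left out). Calls of members in the control arms were less steady. For Mock day 7 against day 3, 2 members were called, but 1 after centring, 1 under the trended and robust prior, 5 with only the compared groups, and 1 to 2 with an array left out. Of all 19938 genes 10152 were called in that contrast, 9279 after centring and 10114 under the trended and robust prior. For untreated day 7 against day 3, 1 was called, but 2 after centring, 3 without dim genes, 0 under the trended prior, 2 with a replicate block, and 0 to 2 with an array left out. Of all 19938 genes 7070 were called in that contrast, 7140 after centring, 7045 under the trended prior and 7092 with a replicate block. Without dim genes 6601 of 13424 were called. Granule genes called at day 7 numbered 2 against Mock, but 0 with only the compared groups, 1 with a replicate block and 0 to 3 with an array left out. Against untreated tumours they numbered 2, but 1 without dim genes and 1 to 2 with an array left out. With an array left out, members below all Mock arrays at day 7 numbered 0 to 1, granule genes called between the days 6 to 11 (11 without Mock day 7 replicate 1), surface and activation genes called against Mock at day 7 4 to 8 (4 without IL-12TD day 7 replicate 4), and relatives 4 to 8 (4 without Mock day 7 replicate 2). The cause was not tested.

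Over all genes, quantile normalization gave 5586 calls in place of 8610 for IL-12TD against Mock at day 3, and 4998 in place of 8467 for the difference between the days. For Mock against untreated at day 7 it called 9 genes and centring 1, in place of 0. The shared replicate numbers do not pair the samples: deviations of same-numbered arrays correlated from -0.277 to 0.524 (mean 0.01), and in 0 of 15 pairs of groups were all over 0.1. Dim signal limits S100a8, Retnlg and Cxcr2, which lay below the array's 40th percentile on all arrays of the 5 groups other than IL-12TD day 3.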
